A study of Saccharomyces cerevisiae with 8 samples.

Results

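The enzymes of lower glycolysis were followed in budding yeast through 10 genes, chosen by their IDs in the deposited table of 6212: FBA1 (YKL060C), TDH1 (YJL052W), TDH2 (YJR009C), TDH3 (YGR192C), PGK1 (YCR012W), GPM1 (YKL152C), ENO1 (YGR254W), ENO2 (YHR174W), CDC19 (YAL038W) and PYK2 (YOR347C). The study compared 4 RNAs, which came from a pif1::KanMX mutant or from its wild-type parent BY4741, each either left untreated or treated with 5 mM zinc chloride for 1 h. Cells grew at 28 °C in rich medium (YPD) to an A660 of 0.6. The mutant lacks Pif1, a DNA helicase of nucleus and mitochondria, and the series concerns its zinc tolerance. RNAs were hybridised in pairs on 8 two-colour arrays, 2 per comparison with the dyes exchanged: wild type with zinc over wild type, pif1 with zinc over pif1, pif1 over wild type on arrays labelled without zinc, and pif1 over wild type on arrays labelled with zinc. Each array gave 1 log2 ratio per gene, with the RNA named first on top, and no level. SDs below are between the 2 arrays of a comparison.

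Lower glycolysis converts fructose 1,6-bisphosphate to pyruvate. Aldolase (FBA1) splits the sugar, glyceraldehyde-3-phosphate dehydrogenase (TDH1, TDH2 and TDH3) makes NADH, and phosphoglycerate kinase (PGK1) yields ATP. Phosphoglycerate mutase (GPM1), enolase (ENO1 and ENO2) and pyruvate kinase (CDC19 and PYK2) then complete the path, the last yielding ATP again. In yeast growing on glucose these enzymes are among the most abundant proteins of the cell, and most of their genes are driven by the activators Gcr1, Gcr2 and Rap1. CDC19 encodes the main pyruvate kinase and PYK2 a minor isoform that glucose represses. The genes of the TDH family, and likewise of the ENO pair, are so alike in sequence that a spotted probe may bind the RNA of its relatives, so values within each family are uncertain as values of single genes.

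The arrays held values for 4556 to 5119 IDs. The lowest and highest correlations between both arrays of a comparison were 0.453 and 0.875 (across 3857 genes with a value on every array; genes are not independent replicates). PIF1, the deleted gene, was at −4.90 and −3.72 on replicate 2 of the mutant arrays labelled without and with zinc. On replicate 1 it was deposited at −17.324 and −99, values over 16 in size that were treated here as placeholders. Of 51 genes at least 4-fold higher with zinc in the wild type, 64.7% and 80.4% had a value on replicates 1 and 2 of pif1 over wild type where the label gives zinc, and 98.0% and 100% where it gives no zinc. Those arrays are therefore named by their labels. The labels do not say whether replicates were separate cultures, so p-values may measure technical spread only.

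All 10 genes had a value on every array, except PYK2, which had none on replicate 1 of pif1 over wild type labelled with zinc. The main feature of the family in these data was that 8 of the 10 genes carried one common value. TDH3 was deposited at −0.427 and 0.211 on replicates 1 and 2 of wild type with zinc over wild type. On replicates 1 and 2 of pif1 with zinc over pif1 it was at −0.076 and −0.116. For pif1 over wild type it was at −0.713 and 0.171 where the label gives no zinc, and at −0.174 and 0.204 where it gives zinc. TDH1, TDH2, ENO1 and ENO2 lay within 0.002 of one another and of TDH3 on each of these 8 arrays. Genes of different enzymes, and paralogs of one enzyme, thus could not be told apart in the table.

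Aldolase and the main pyruvate kinase shared the value on most arrays. FBA1 and CDC19 each lay within 0.003 of TDH3 on 6 arrays and PGK1 on 5. The exceptions were mostly on replicate 1 of the mutant arrays. On the one labelled without zinc, FBA1 was at −0.355, CDC19 at −0.287 and PGK1 at −0.676, all above the −0.713 of TDH3. On the one labelled with zinc, FBA1 was at −0.003, CDC19 at 0 and PGK1 at 0.138, again above TDH3 at −0.174. PGK1 also stood at −0.417 on replicate 1 of wild type with zinc over wild type, within 0.02 of the common value.

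GPM1 and PYK2 lay at the common value on 0 arrays. GPM1 was deposited at 0.790 and −0.289 on the arrays of pif1 with zinc over pif1, and at 0.279 and −0.030 on those of wild type with zinc over wild type. Its values for pif1 over wild type were −0.019 and 0.045 without zinc by the label, and −0.034 and 0.037 with zinc by the label. PYK2 was at 0.892 and 0.474 on the arrays of pif1 with zinc over pif1 and at 1.401 and 1.445 on those of wild type with zinc over wild type. For pif1 over wild type it was at 0.356 and 0.015 where the label gives no zinc, and at 0.368 on the 1 array with the zinc label that held it. PYK2 was therefore above 0 on all 7 arrays with a value, and GPM1 on 4 of 8.

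**Figure D1:**
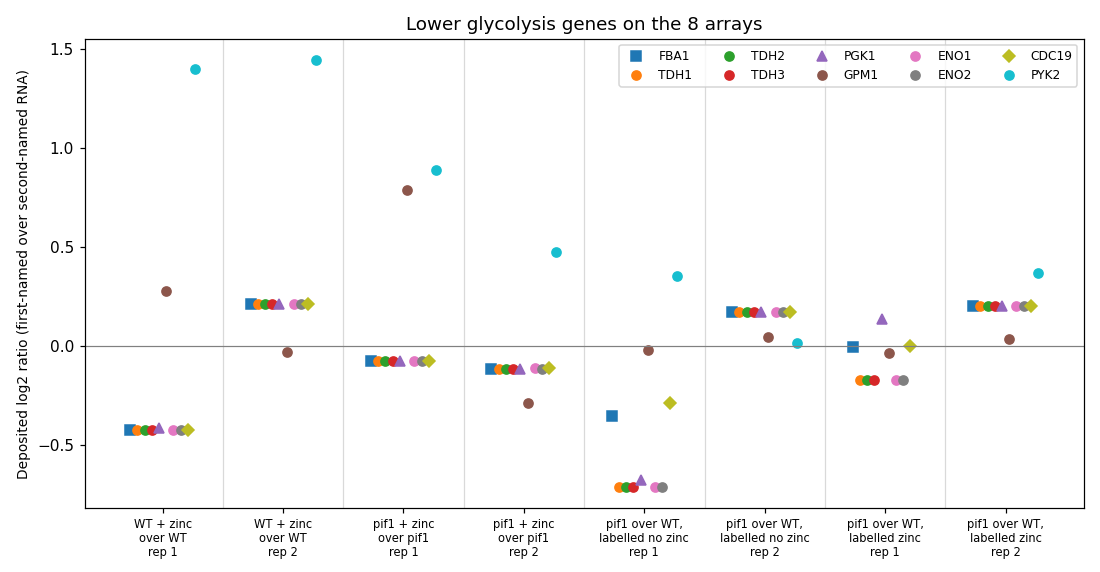
Deposited log2 ratio (vertical axis) of the 10 lower glycolysis genes on each of the 8 arrays (horizontal axis), 1 point per gene and array, with no error bar because each point is 1 value. TDH1, TDH2, TDH3, ENO1 and ENO2 lie on one level on each array, FBA1, PGK1 and CDC19 leave it mainly on replicate 1 of both mutant comparisons, and PYK2 and GPM1 stand apart.

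The common value was rare outside this family. Of all IDs with a value, 5274 held it on 0 arrays and 215 on 1 array. Of 3857 IDs with a value on every array, giving 7436296 possible pairs, 16 pairs lay within 0.02 of each other on every array. Of these, 10 were pairs among TDH1, TDH2, TDH3, ENO1 and ENO2, and 15 were pairs among those 5 genes and TEF2, which encodes translation elongation factor 1 alpha. TEF2 was the only ID outside the family within 0.003 of TDH3 on all 8 arrays. YML040W, YML045W, YMR046C and YMR051C, for which the gene table gives no symbol, were there on 7, and PDC1, the main pyruvate decarboxylase, on 6. CCW12, which encodes a cell wall mannoprotein, and TEF1, the other gene of elongation factor 1 alpha, were there on 5, as was YJR026W.

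On most single arrays the value was also held by more IDs than values beside it. On replicate 1 and 2 of wild type with zinc over wild type, 39 and 44 IDs lay within 0.003 of TDH3, where 16 neighbouring windows of the same width held a median of 20 and 22. On the arrays of pif1 with zinc over pif1 the counts were 53 and 53, against medians of 19 and 20.5. On the mutant arrays labelled without zinc they were 10 and 49, against 2 and 37. They reached 57 and 61 on the mutant arrays with the zinc label, against 44 and 32. These counts include the lower glycolysis genes themselves, whose common value set the window. Without them the window held more IDs than the highest of its neighbours on 5 of the 8 arrays. The exceptions were replicates 1 and 2 of pif1 over wild type where the label gives no zinc (5 against 8 and 41 against 53) and replicate 1 where it gives zinc (52 against 55). Intensities and saturation flags were not analysed here, so whether these spots had reached the upper limit of the scanner was not tested.

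**Figure D2:**
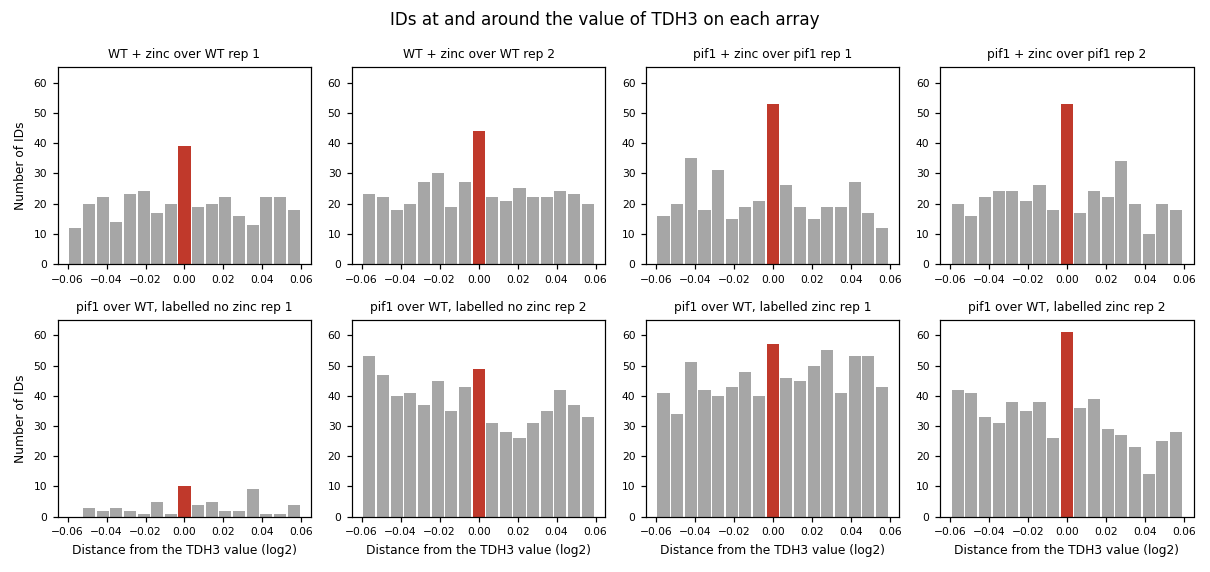
Number of IDs (vertical axis) in windows 0.003 to either side of a value, plotted by distance from the value of TDH3 in log2 units (horizontal axis), 1 panel per array. The red bar is the window at TDH3, which held 10 to 61 IDs, the lower glycolysis genes included, and the grey bars are the 16 neighbouring windows.

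The sign of the common value mostly followed the replicate number. It was below 0 on replicate 1 of all 4 comparisons (−0.427, −0.076, −0.713 and −0.174) and above 0 on replicate 2 of 3 of them (0.211, 0.171 and 0.204), the exception being pif1 with zinc over pif1 (−0.116). By the labels, the RNA on top of the ratio was the Cy5 one on replicate 1 of the zinc comparisons and the Cy3 one on replicate 1 of the mutant comparisons. Turned to Cy5 over Cy3, the value was −0.427, −0.211, −0.076 and 0.116 on the zinc arrays and 0.713, 0.171, 0.174 and 0.204 on the mutant arrays. In that form its sign split by the type of comparison, again with a single exception (0.116). The cause of either pattern was not tested. The 4 comparisons form a closed loop, in which the means of exact ratios would sum to 0. For TDH3 the sum (pif1 with zinc over pif1, plus pif1 over wild type without zinc, minus the other 2) was −0.35, and for GPM1 it was 0.06. The median size of this sum was 0.27 over 3857 genes. With the zinc labels of the mutant arrays exchanged, the sum was 0.23 for TDH3 and 0.05 for GPM1, and its median size 0.23.

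Wild-type cells with zinc were set against wild-type cells without it to show the response of the parent strain. PYK2, the minor pyruvate kinase, was the only gene of the 10 that rose. After centring each array on its median it was at 1.465 and 1.481, a mean of 1.47 ± 0.01 (SD, n = 2), or 2.78-fold (limma adjusted p = 0.000465). Of all genes tested, 97.6% had a lower mean. The call held when either array was left out (adjusted p = 0.0164 without replicate 1 and 0.0155 without replicate 2).

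The other 9 genes did not pass in the wild type. GPM1 averaged 0.17 ± 0.24 (SD, n = 2, limma adjusted p = 0.58). The common value came to −0.363 and 0.247 after centring, so that TDH3 averaged −0.06 ± 0.43 (SD, n = 2, adjusted p = 0.872). FBA1 and CDC19 had the same mean of −0.06, and PGK1 was at −0.05. The replicates lay on opposite sides of 0, and since the genes shared 1 value these are not 8 separate measurements. Thus 1 of 10 genes was called, and it was higher, against 30.3% of 4635 genes called in either direction and 14.7% called higher (42.7% with replicate number as a block, and again 1 of the 10). The median of the 10 means was −0.06 and that of all genes tested was −0.002.

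The same comparison was made within the pif1 mutant. PYK2 again rose, to centred values of 0.818 and 0.510, a mean of 0.66 ± 0.22 (SD, n = 2), or 1.58-fold (limma adjusted p = 0.0143). This call ended without replicate 1 (0.51, adjusted p = 0.0684), when the 2 arrays were fitted alone (adjusted p = 0.152), and when all arrays were scaled to 1 spread (0.43, adjusted p = 0.133) or 1 distribution (0.48, adjusted p = 0.118).

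GPM1, the phosphoglycerate mutase, differed widely between the arrays of the mutant. It was at 0.716 and −0.252 after centring, and its mean of 0.23 ± 0.68 (SD, n = 2, limma adjusted p = 0.44) rested on replicate 1. Without replicate 2 it was called higher at 0.72 (adjusted p = 0.0146), and without replicate 1 it was below 0 at −0.25 (adjusted p = 0.279). The common value was at −0.150 and −0.080, with TDH3 at −0.12 ± 0.05 (SD, n = 2, adjusted p = 0.737). TDH1, TDH2, ENO1, ENO2, FBA1, PGK1 and CDC19 were each at −0.11 or −0.12. In all, 1 of 10 genes was called, against 31.3% of 4272 genes in either direction and 15.5% higher (44.8% with replicate number as a block, and again 1 of the 10), and the median of the 10 means was −0.11 against 0.01 over all genes tested.

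In both strains PYK2 rose after zinc. On the 4 zinc arrays PYK2 was at 0.818 and 0.510 in pif1 and at 1.465 and 1.481 in the wild type. The mean in pif1 was lower by 0.81 (difference −0.81, SE 0.22). This difference did not pass after adjustment over the 4086 genes with a value on all 4 zinc arrays (limma adjusted p = 0.186; 0.0642 with replicate number as a block), of which 0.269% passed. The restriction to these arrays was chosen after seeing the data, because PYK2 lacked a value on 1 mutant array. The mutant arrays, as labelled, did not show PYK2 lower with zinc. After centring, pif1 over wild type was at 0.395 on the 1 array labelled with zinc, and at 0.389 and 0.028 without zinc. That part of the strain contrast was not tested for PYK2.

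For pif1 over wild type on the arrays labelled without zinc, 0 of 10 genes passed, against 2.03% of 4722 genes called by limma. At an unadjusted p under 0.05 there were also 0 of 10, against 14.6% of all genes. TDH1, TDH2, TDH3, ENO1 and ENO2 shared 1 value, so these counts, here and in the other comparisons, are not of separate measurements. With replicate number as a block 6.16% of genes were called and still 0 of the 10. PYK2 was at 0.389 and 0.028 after centring, a mean of 0.21 ± 0.26 (SD, n = 2, adjusted p = 0.619). GPM1 was at 0.04 ± 0.03 (SD, n = 2, adjusted p = 0.973). The common value was at −0.680 and 0.184, and TDH3 averaged −0.25 ± 0.61 (SD, n = 2, adjusted p = 0.703). The genes that left it on replicate 1 had means nearer to 0, with FBA1 at −0.07, CDC19 at −0.04 and PGK1 at −0.23.

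For pif1 over wild type on the arrays labelled with zinc, 0 of the 9 genes with both values passed, against 1.18% of 4657 genes (2.62% with replicate number as a block, and again 0 of the 9). At an unadjusted p under 0.05 there were also 0 of 9 by limma, against 9.81% of all genes. PGK1 was the highest of the 9 at 0.20 ± 0.05 (SD, n = 2, limma adjusted p = 0.957), with CDC19 and FBA1 at 0.13 each. TDH3 averaged 0.04 ± 0.27 and GPM1 0.03 ± 0.05 (SD, n = 2 each, adjusted p = 1 for both). PYK2 had 1 array and was not tested.

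The contrast of zinc responses, pif1 minus wild type, taken from all 8 arrays, passed for 0 of the 9 genes with every value and for 0 of 3857 genes by limma, where 5.96% of genes and 0 of the 9 had an unadjusted p under 0.05. With replicate number as a block 1 gene passed (0.0259%), and 0 of the 9. TDH3 was at 0.12 in this contrast, which averages −0.06 from the zinc arrays and 0.29 from the mutant arrays. PGK1 was at 0.18 (−0.06 and 0.43), CDC19 at 0.05 (−0.06 and 0.16), FBA1 at 0.07 (−0.06 and 0.20) and GPM1 at 0.03 (0.06 and −0.01). The adjusted p was 0.993 for each of these genes. The sign of this contrast depended on the zinc labels of the mutant arrays. With those labels exchanged, an alternative added after seeing the data, TDH3 was at −0.17, PGK1 at −0.24, CDC19 at −0.11, FBA1 at −0.13 and GPM1 at 0.03 (limma adjusted p between 0.829 and 0.984), and 19 of 3857 genes passed.

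The steps around lower glycolysis were described through other genes of the path, listed by function. Over all genes tested, limma called 30.3% in the wild type with zinc (14.7% higher) and 31.3% in pif1 with zinc (15.5% higher). The short lists were not tested against these shares. In upper glycolysis, 3 of 7 genes tested rose and 1 fell in the wild type. Glucokinase GLK1 rose by 2.76 ± 0.16, hexokinase HXK1 by 2.43 ± 0.85 and the glucokinase-like EMI2 by 1.43 ± 0.00 (SD, n = 2 each, limma adjusted p = 5.74e-05, 0.000222 and 0.000356). PFK1, a subunit of phosphofructokinase, was at −0.46 ± 0.17 (adjusted p = 0.0366), a call that ended in 5 alternative fits, among them those without either replicate (adjusted p = 0.349 and 0.124). The triose phosphate isomerase TPI1 (0.11), the phosphoglucose isomerase PGI1 (−0.02) and HXK2 (0.01), the hexokinase that predominates on glucose, did not pass.

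In the pif1 mutant the same 3 sugar kinases rose. HXK1 was at 2.16 ± 0.13, GLK1 at 2.02 ± 0.70 and EMI2 at 0.82 ± 0.41 (SD, n = 2 each, limma adjusted p = 0.000415, 0.000324 and 0.00551). The limma call of EMI2 ended when the arrays were scaled to 1 spread (adjusted p = 0.0504) and when the 2 arrays were fitted alone (adjusted p = 0.0566). Both phosphofructokinase subunits were lower, PFK1 at −0.68 ± 0.17 (limma adjusted p = 0.00678) and PFK2 at −0.83 ± 0.64 (adjusted p = 0.0476). The call of PFK1 ended with arrays scaled to 1 spread (adjusted p = 0.0814) or 1 distribution (0.0855) and with the 2 arrays fitted alone (0.135). PFK2 had values on these 2 arrays alone. Its limma call ended without replicate 2 (−0.378), on values without centring (adjusted p = 0.0529) and with the 2 arrays fitted alone (adjusted p = 0.0527). It also ended with arrays scaled to 1 spread (adjusted p = 0.144) or 1 distribution (adjusted p = 0.132).

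Paralogs of the lower enzymes included 1 called gene, GPM2, a relative of the phosphoglycerate mutase whose product has no known enzyme activity. GPM2 was at 1.05 ± 0.30 with zinc in pif1 and at 0.57 ± 0.34 with zinc in the wild type (SD, n = 2 each, limma adjusted p = 0.00299 and 0.0385). For pif1 over wild type it was at 0.90 ± 0.10 where the label gives no zinc (n = 2, limma adjusted p = 0.0431), the only call among these lists there, and at 0.70 ± 0.29 where it gives zinc (n = 2, adjusted p = 0.146). GPM2 was above 0 on 8 of 8 arrays, whereas GPM1 was on 4. The zinc call in the wild type and the call labelled without zinc ended when either replicate was left out. The first also ended with arrays scaled to 1 spread (limma adjusted p = 0.137) or 1 distribution (0.198). GPM3, the other mutase relative, and the enolase-related ERR1, ERR2 and ERR3 did not pass in any comparison. With replicate number as a block GPM3 passed in pif1 with zinc (0.48, limma adjusted p = 0.016), as did 44.8% of all genes.

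In fermentation, which turns pyruvate to ethanol, 2 of 6 genes tested fell in pif1 and 2 of 7 in the wild type, PDC5 and ADH4 in each. These counts are near the shares of all genes called in either direction (31.3% in pif1 and 30.3% in the wild type). PDC5, a minor pyruvate decarboxylase, was at −0.50 ± 0.20 in pif1 and −0.53 ± 0.01 in the wild type, and the alcohol dehydrogenase ADH4 at −0.51 ± 0.18 in pif1 and −0.53 ± 0.21 in the wild type (SD, n = 2 each, limma adjusted p between 0.0251 and 0.0332). All 4 calls ended when the arrays were scaled to 1 spread (limma adjusted p between 0.128 and 0.237) or 1 distribution (between 0.112 and 0.218). The wild-type calls also ended when either replicate was left out. Those in pif1 ended without replicate 2 and with the 2 arrays fitted alone (adjusted p = 0.317 for PDC5 and 0.308 for ADH4). The block added PDC6, another minor pyruvate decarboxylase, in the wild type (−0.49, limma adjusted p = 0.0221). It called 42.7% of all genes there. PDC1 shared the common value on 6 arrays, as given above, and was at −0.06 in the wild type with zinc. ADH1, the main fermentative alcohol dehydrogenase, shared it on replicate 1 of the wild type with zinc (−0.427) and on replicate 2 of the mutant arrays labelled with zinc (0.204).

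Of 7 regulators of the glycolytic genes, 2 fell in pif1 and 1 in the wild type. Of all genes, 31.3% and 30.3% were called in either direction (44.8% and 42.7% with replicate number as a block). RAP1 was at −0.73 ± 0.11 in pif1 and −0.46 ± 0.03 in the wild type (SD, n = 2 each, limma adjusted p = 0.00398 and 0.0293). Both calls ended with arrays scaled to 1 spread (adjusted p = 0.0657 and 0.129) or 1 distribution (0.0698 and 0.124). The pif1 call also ended with the 2 arrays fitted alone (adjusted p = 0.103), and the wild-type call when either replicate was left out. PDC2, an activator of pyruvate decarboxylase genes, was at −0.97 ± 0.20 in pif1 (adjusted p = 0.00193) and −0.39 ± 0.32 in the wild type (adjusted p = 0.0791). GCR1 (−0.47 in pif1 and −0.18 in the wild type) and GCR2 (0.37 in pif1 and 0.32 in the wild type) did not pass. With replicate number as a block GCR2 passed in pif1 and in the wild type (adjusted p = 0.0248 and 0.0456), GCR1 in pif1 (adjusted p = 0.0176), REB1 in both (−0.58 in pif1 and −0.47 in the wild type, adjusted p = 0.00303 and 0.00763), and PDC2 (adjusted p = 0.0314) and TYE7 (0.48, adjusted p = 0.0248) in the wild type. On the arrays of pif1 over wild type labelled without zinc, the block added PFK1 (0.57, adjusted p = 0.0318), GCR1 (0.57, adjusted p = 0.0361), RAP1 (0.58, adjusted p = 0.0245) and REB1 (0.48, adjusted p = 0.0338). The block called 6.16% of all genes there.

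Pyruvate carriers and pyruvate dehydrogenase genes had 0 calls of 7 tested in pif1 and 0 of 8 in the wild type by limma, and 1 and 0 at an unadjusted p under 0.05. Over all genes, 31.3% and 30.3% were called (44.8% and 42.7% with replicate number as a block), and 42.8% and 42.6% had such an unadjusted p. The widest means were those of the dehydrogenase subunit PDX1 in pif1 (0.38, adjusted p = 0.0844, and 0.044 with the block) and the carrier subunit MPC2 in the wild type (−0.38, adjusted p = 0.141, and 0.032 with the block). Among 6 tested genes of gluconeogenesis and fructose 2,6-bisphosphate, 2 rose in each strain and 0 fell. Over all genes, 15.5% were called higher in pif1 and 14.7% in the wild type. In either direction the shares were 31.3% and 30.3%, which the counts of this list are near. PYC1, a pyruvate carboxylase, rose by 0.54 ± 0.12 in pif1 and 0.62 ± 0.30 in the wild type (SD, n = 2 each, limma adjusted p = 0.0265 and 0.0155). The 6-phosphofructo-2-kinases were called in 1 strain each, PFK27 in pif1 (0.58 ± 0.41, adjusted p = 0.0287) and PFK26 in the wild type (0.63 ± 0.13, adjusted p = 0.0352). The difference between the strains did not pass for either (limma adjusted p = 0.993). With replicate number as a block PFK26 and PFK27 passed in the other strain too (0.39 in pif1, adjusted p = 0.024, and 0.36 in the wild type, adjusted p = 0.0463). In pif1 the block also added FBP26, the fructose-2,6-bisphosphatase (0.99 ± 1.75, SD, n = 2, adjusted p = 0.0412), whose arrays were at −0.244 and 2.229, and the pyruvate carboxylase PYC2 (−0.40, adjusted p = 0.0498). All 4 calls made without the block ended when the arrays were scaled to 1 spread (limma adjusted p between 0.072 and 0.189) or 1 distribution (between 0.0812 and 0.189). Each also ended when at least 1 of the replicates was left out.

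**Figure D3:**
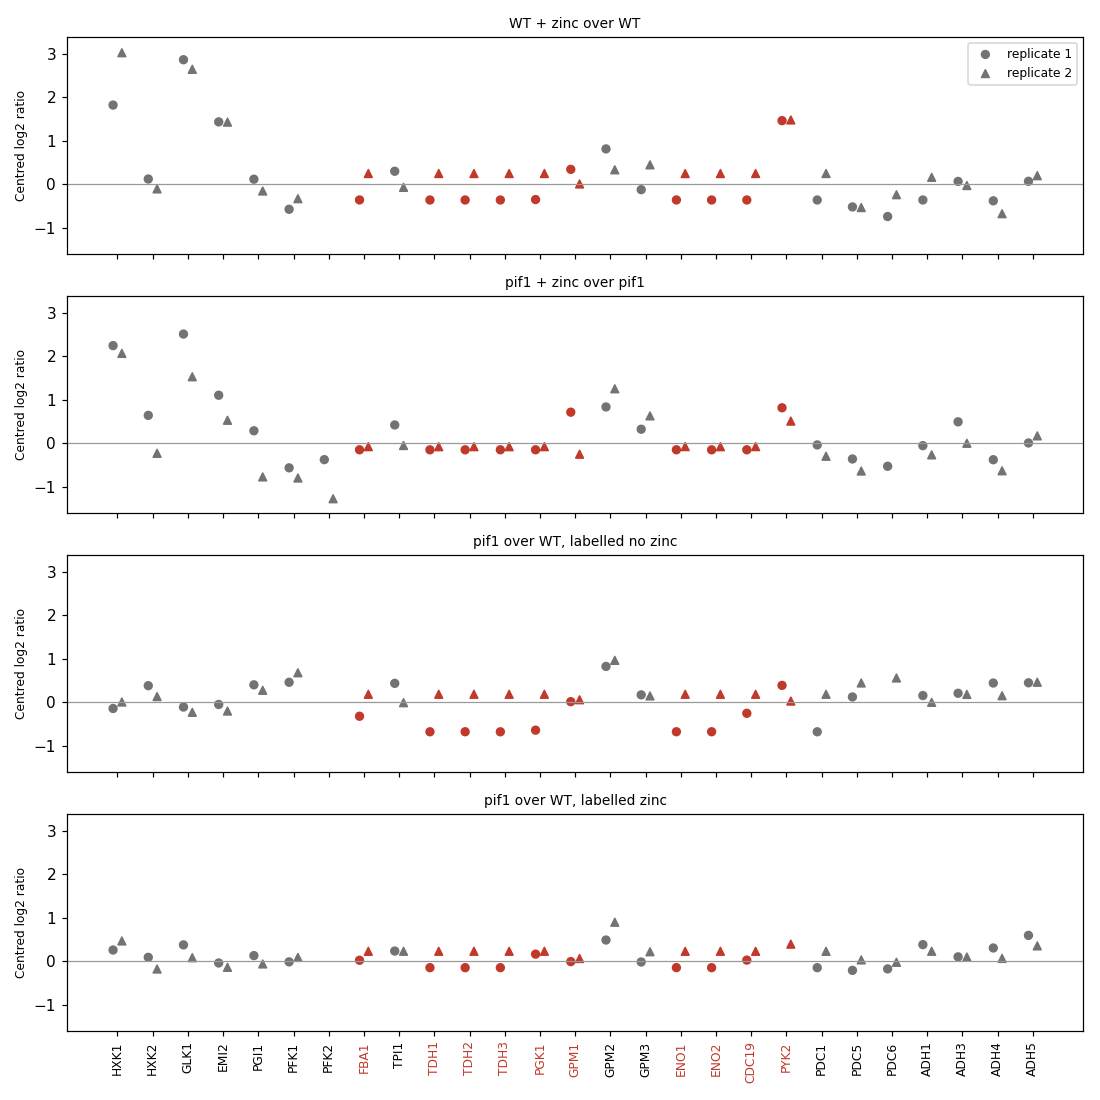
Log2 ratio after centring each array on its median (vertical axis) for genes ordered along glycolysis and fermentation (horizontal axis), 1 panel per comparison, with a circle for replicate 1 and a triangle for replicate 2. Red marks the 10 lower glycolysis genes and grey the others. PYK2 is the only red gene with both arrays above 1 in wild type with zinc over wild type, beside the grey HXK1, GLK1 and EMI2.

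Likeness to these patterns was measured as the root mean square difference of centred ratios over the arrays. To TDH1 the nearest of 3848 IDs outside the 10 genes were TEF2 (0.00141), EMP65 (0.0667) and PDC1 (0.0874), where the median over all IDs was 0.489. To the median profile of the 10 genes they were TEF2, EMP65, PDC1, YER138C and YMR051C (0.00644 to 0.155). To PYK2, over the 7 arrays with its values, they were TIS11 (0.181), VVS1 (0.19) and AGP2 (0.223), against a median of 0.935 over 3923 IDs. TEF2 held the common value on all 8 arrays, so its distance to TDH1 restates that and is no measure for PYK2. The median profile also ran close to the common value, which YMR051C held on 7 arrays, PDC1 on 6, YER138C on 4 and EMP65 on fewer. Nearness of the first 3 of these to TDH1 or to the median profile thus largely restates the shared value and is no separate sign of like regulation.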

How the data were processed

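The values were log2 ratios, 1 per array and ID, deposited by the authors in 1 table. Per the labels, 8 ug of total RNA was labelled per channel, and the authors dropped spots smaller than 120 um or dimmer than 100 units in both dyes. Log base, background correction and normalization are not given in the sources used here: base 2 was assumed from the size of the values. Direction was read from the labels, from positive correlations between dye-exchanged arrays and from PIF1. The lowest correlation between arrays was −0.365, and the authors' centring stays unknown (column medians −0.064 to 0.0745). Symbols came from NCBI's R64 gene table (5639 IDs matched).

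The 2 PIF1 placeholders (size over 16) were dropped, every array was shifted to a median of 0, and limma 3.58.1 under R 4.3.3 (lmFit, eBayes, 1 coefficient per comparison, 1 spread over 8 arrays, Benjamini-Hochberg over the genes with both values) gave adjusted p, called under 0.05. A lone array left after removing a replicate was assumed to vary like the others. SDs are those of 2 arrays, whose number limits precision. The fit was also run on simulated data with noise independent between arrays. That run could not show how shared deviations of same-numbered arrays affect the fit. Deviations of same-numbered arrays correlated at 0.438 to 0.552 in all 6 pairs of comparisons. The main fit did not use this pairing. It entered only the alternative with replicate number as a block, and was taken from the data and not from the labels. The dyes run opposite ways by number in the zinc and the mutant comparisons. The zinc comparisons share RNAs with the mutant comparisons. Members, lists and the naming rule (all 10 genes, called list genes and the widest otherwise, nearest profiles) were chosen with earlier results of these data known.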

Additional observations from a re-analysis of the deposited data

How the results depend on the processing

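Every alternative that tested PYK2 in the wild type kept its call, and of the other 9 genes only GPM1 was called under any alternative run, in pif1 with zinc without replicate 2. The counts of genes called moved more. Scaled to 1 spread, the arrays gave 713 genes for zinc in the wild type, 413 for zinc in pif1, 440 for pif1 over wild type labelled without zinc and 371 for the pair labelled with zinc. Scaled to 1 distribution they gave 703, 430, 429 and 318. The last 2 counts split into 230 higher and 199 lower and 213 higher and 105 lower, where the reported calls were 68 higher and 28 lower and 46 higher and 9 lower. With the replicate number as a block the mutant comparisons had 291 and 122 calls and the strain contrast 1, and the block changed no call of a lower glycolysis gene. Fitted on its own 2 arrays, zinc in pif1 had 526 calls, and the mutant comparisons 592 and 267. The strain contrast had 6 calls from the zinc arrays alone and 7 from the mutant arrays alone, both over the 3857 genes with all 8 values (11 of the 4086 genes with all 4 zinc values), and 19 with the zinc labels of the mutant arrays exchanged.

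Leaving out a replicate gave 426 to 460 genes for zinc in the wild type, 0 to 12 for pif1 over wild type labelled without zinc, 1 to 2 for the pair labelled with zinc and 0 to 12 for the strain contrast, which had 2 calls without replicate 1 of zinc in pif1 and 12 without replicate 2. For zinc in pif1 the number of lower glycolysis genes called ranged from 0 to 2 (without replicates 1 and 2), and was 0 with arrays scaled to 1 spread, scaled to 1 distribution or fitted alone. Restricted to genes with all 8 values, both zinc comparisons had 0, because PYK2 lacks 1 value.

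Uncalled values changed sign. With a replicate left out, zinc in the wild type ranged from −0.363 to 0.247 for TDH3 and CDC19, from −0.362 to 0.247 for FBA1 and from −0.353 to 0.247 for PGK1. In pif1 GPM1 ranged from −0.252 to 0.716. For pif1 over wild type labelled without zinc the ranges were −0.68 to 0.184 for TDH3, −0.322 to 0.184 for FBA1, −0.643 to 0.184 for PGK1 and −0.254 to 0.184 for CDC19. For the pair labelled with zinc they were −0.147 to 0.231 for TDH3 and −0.007 to 0.064 for GPM1. In the strain contrast they were −0.1 to 0.332 for TDH3, −0.083 to 0.222 for FBA1, −0.024 to 0.39 for PGK1, −0.099 to 0.206 for CDC19 and −0.217 to 0.267 for GPM1. The zinc arrays alone gave −0.057 for TDH3 and FBA1, −0.062 for PGK1 and −0.056 for CDC19, and the mutant arrays alone −0.007 for GPM1. Exchanging the zinc labels of the mutant arrays gave −0.173 for TDH3, −0.126 for FBA1, −0.244 for PGK1 and −0.11 for CDC19. The causes were not tested. With 2 arrays per comparison and no intensities used, signal over background could not be weighed.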
